A study of Mus musculus with 8 samples.

Results

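The regions described here are the narrow H3K27ac peaks of control cells that carried no H3K27ac peak in cells treated with C28. They were chosen by their presence in one deposited peak list and their absence from the other: a control peak on chromosomes 1 to 19 or X, narrower than 2000 bp, that overlapped no treated peak by 1 bp or more. Of 22542 narrow control peaks on these chromosomes 5686 met the rule, and the other 16856 are called shared. All 5686 came from the single control library, and the 2 lists together held 45361 peaks. The cells were mouse cells of C57BL/6 background labelled as female germline stem cells, a name used for dividing germ cells isolated from ovaries and grown in culture. The H3K27ac libraries were 1 library of the control group and 1 of the group treated with C28 (028 in the sample names), a compound the labels give by code only. RNA libraries of the same design, 3 with the solvent DMSO and 3 with C28, served for a check of cell type. They also served for a check of genes of histone acetylation and methylation. All profiles were taken at 3 h.

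H3K27ac is acetylation of a lysine in the tail of histone H3. It is written mainly by the paralogous acetyltransferases p300 and CBP, removed by histone deacetylases and bound by bromodomain proteins. Nucleosomes at active promoters and active enhancers carry the mark, and methylation of the same lysine by the Polycomb enzymes EZH1 and EZH2 excludes it. The mark turns over quickly, so its pattern in a cell reflects the enzymes bound at the time. A peak list gives each stretch in which the precipitated DNA exceeded a local background, with a yes or no call at a threshold. A region missing from a list can therefore hold some signal below that threshold.

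Each H3K27ac group held 1 library, so no comparison of peaks between control and C28 has a replicate check, and no p-value is given for one. For a control-only region the treated list gives no value at all, only the absence of a call. The read depth of both H3K27ac libraries is unknown. Intervals given with shares are exact Clopper-Pearson 95% intervals over peaks. They cover counting error only and treat neighbouring peaks as independent, which they are not.

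The control-only regions made up 25.2% of the narrow control peaks (interval 24.7% to 25.8%). Read the other way, 3562 of 21344 narrow treated peaks, or 16.7% (interval 16.2% to 17.2%), had no control peak on them. Regions without a counterpart thus occurred in both directions and were the larger share in the control list. The control-only regions covered 3.54 Mb, which was 14.996% of the 23.6 Mb under all control peaks on these chromosomes, and treated-only peaks covered 1.79 Mb, or 9.45% of 19.0 Mb. Wide control peaks, of 2000 bp or more, were almost always matched: 7 of 977 had no treated peak (0.716%, interval 0.289% to 1.47%). In the treated list 0 of 369 wide peaks lacked a control peak, which leaves shares up to 0.995% within the interval.

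Control-only regions were weak peaks. The authors' peak caller gives each peak a fold enrichment over background and a -log10 q, a significance score that grows with both enrichment and read number. The median -log10 q was 6.92 (quartiles 4.83 and 10.01) for control-only regions and 28.0 (quartiles 12.9 and 58.7) for shared narrow peaks of the same list. The median fold enrichment was 4.11 (quartiles 3.41 and 5.004) against 6.68 (quartiles 4.66 and 9.24). Strength comes from the list on which the rule works, so these values describe the members and are not a test.

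When narrow control peaks were ranked by -log10 q into 5 classes of equal size, the unmatched share was lower in each stronger class. In the weakest class, with -log10 q up to 7.09, 2921 of 4509 peaks were control-only (64.8%). The share was 43.1% in the second class, 16.13% in the third and 2.11% in the fourth. In the strongest class, from 55.6 upward, 1 of 4509 peaks was control-only (0.0222%). The 2 weakest classes held 51.4% and 34.2% of all members, so most control-only regions lay low in the list.

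The treated list showed the same fall with strength at a lower level. Between -log10 q 5 and 10, 53.3% of control peaks (2717 of 5094) and 33.6% of treated peaks (1845 of 5494) had no counterpart. Between 10 and 20 the shares were 25.5% and 9.66%, and between 20 and 40 they were 5.32% and 1.02%. At 40 and over, 9 of 6451 control peaks and 3 of 4319 treated peaks stood alone.

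**Figure D1:**
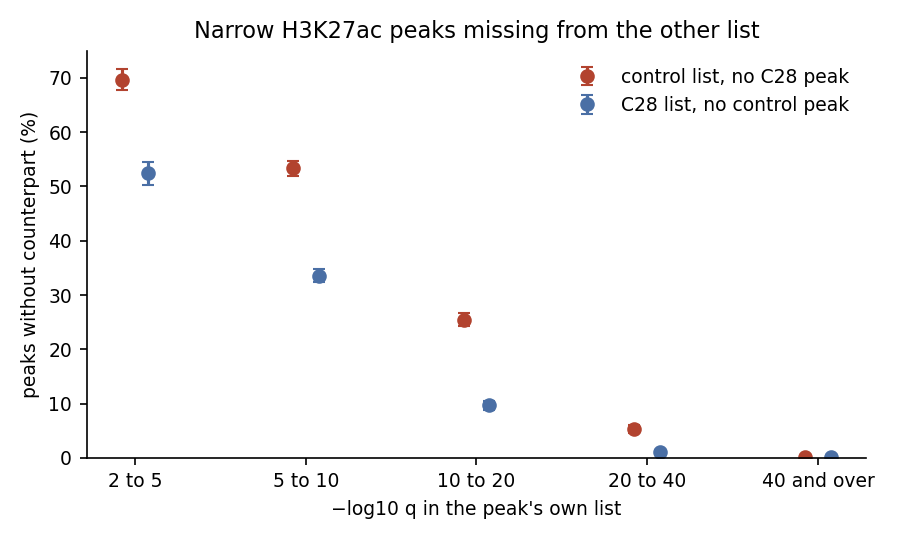
Percent of narrow H3K27ac peaks without a peak in the other list (vertical axis) by the -log10 q of the peak in its own list (horizontal axis); red is the control library, blue the C28 library, and bars are exact 95% intervals over peaks. Shares fall from 69.7% (control) and 52.4% (C28) between 2 and 5 to under 1% at 40 and over.

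The 2 lists did not give the same -log10 q at the same fold enrichment. Among narrow peaks with a fold from 5 to 6, the median -log10 q was 12.7 in the control list and 9.02 in the treated list, and the median width was 872.5 bp and 675 bp. Among those with a fold from 8 to 9 the medians were 44.7 and 29.4. These are the authors' values side by side, with no correction for read depth. Grouped by fold in place of -log10 q, the unmatched shares of the 2 lists differed most at low folds. At folds from 2 to 3, 50.6% of control peaks and 27.5% of treated peaks were unmatched, and at 3 to 4, the class with the most members (1741), 49.3% and 32.1%. At 4 to 5 the shares were 40.3% and 33.7%. At folds from 5 to 6 the shares were 30.5% and 24.7%, at 6 to 7 they were 14.7% and 12.3%, and at 7 to 8 they were 6.12% and 5.19%. The treated list held 546 peaks with a fold from 2 to 3 and the control list 1487. Of the control-only regions 23.2% (1319) had a fold under 3.35, the value that 5% of narrow treated peaks fell below, against 7.64% of shared narrow peaks. The part of read depth or of the calling threshold in the membership of these regions was not tested.

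Members were also narrow. Their median width was 528 bp (quartiles 398 and 763 bp, lowest 318 bp), against 1044 bp (quartiles 727 and 1361 bp) for shared narrow peaks, and treated-only peaks had a median of 424 bp. Of control peaks under 400 bp 65.5% were control-only, of those from 800 to 1000 bp 18.3%, and of those from 1500 to 2000 bp 3.55%. At like strength the control-only regions remained the narrower class: between -log10 q 5 and 10 the medians were 518 and 655 bp, between 10 and 20 they were 686 and 917 bp, and between 20 and 40 they were 818 and 1108.5 bp. A wider peak offers more bases on which a treated peak can lie, so width is tied to the rule. Fold enrichment within these strength classes was close between control-only and shared peaks up to -log10 q 20 (4.33 against 4.25, and 5.25 against 5.21). It was lower for control-only regions between 20 and 40 (6.10 against 6.92). The summit lay near the middle in both classes, at a median of 48.4% of the peak's length for members and 49.4% for shared peaks.

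**Figure D2:**
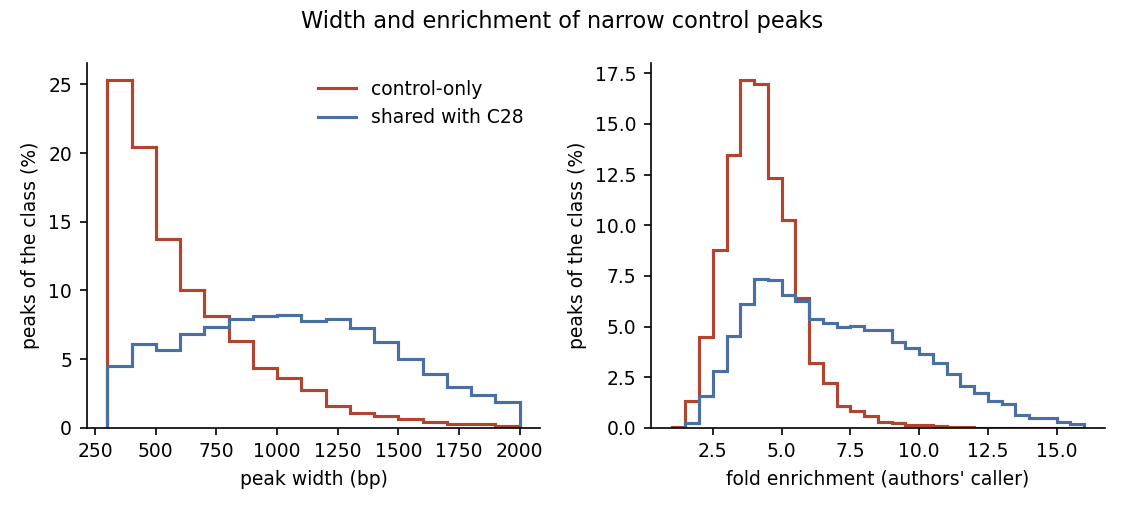
Distribution of width (left, 100 bp steps) and of fold enrichment (right, steps of 0.5; folds of 16 and over are not drawn) as percent of the peaks in each class, for 5686 control-only regions (red) and 16856 shared narrow control peaks (blue). The control-only regions pile up at the narrow and weak end, with medians of 528 bp and 4.11-fold against 1044 bp and 6.68-fold.

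The width limit hardly touched the membership. Just inside it, the widest members were chr17:36135395-36137389 (1995 bp, fold 2.44, -log10 q 20.3) and chr6:31281867-31283858 (1992 bp, fold 4.23, -log10 q 18.0). Just outside it, the first unmatched wide peaks were chr3:145613346-145615348 (2003 bp, fold 4.31, -log10 q 7.80) and chr3:95542972-95544990 (2019 bp, fold 4.34, -log10 q 11.999). In the 100 bp of width below the limit 8 of 319 control peaks were unmatched, and in the 100 bp from the limit upward 4 of 254. The overlap threshold was tighter at some regions. The member nearest to a treated peak, chr19:24513248-24514170, ended or began 1 bp from it, while the narrow peak counted as shared on the fewest bases, chr2:68268053-68268410, overlapped its treated peak by 3 bases.

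The 10 members with the highest -log10 q were of several kinds. Positions are in mm9, the build named in the submitters' notes, and no gene model of that build was used, so no gene is named for a region. The highest value by far, 294, belonged to chr9:3016667-3017222. Its fold enrichment was only 2.36, lower than that of all but 3.97% of members, and a treated peak with -log10 q 769 lay 551 bp from its edge. The member chr5:123591582-123592712 had a like profile, with fold 3.13 at -log10 q 47.3 and a treated peak 1554 bp away. For both regions a high significance went with a low fold and a strong treated peak close by.

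Another 4 strong members are set apart by their distance from treated peaks, over 10 kb, and each had a high fold. A 330 bp region on chromosome 18 had the highest fold of all members, 16.9, with -log10 q 50.6, and the nearest treated peak lay 417441 bp away. On chromosome 16, chr16:3114930-3115565 had fold 11.8 and -log10 q 47.3, and no treated peak lay within 235493 bp. A second member, 1295 bp away between summits, flanked it. The wider chr9:21156571-21158093 (1523 bp) had fold 7.42 and -log10 q 54.0, with the nearest treated peak 13431 bp away, and chr3:41072156-41073348 had fold 7.95 and -log10 q 42.0 at 72838 bp from a treated peak. These 4 regions were strong in the control library by both measures, and none had a treated peak within 10 kb.

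The remaining 4 of the 10 lay within 10 kb of a treated peak. They were chr5:140978451-140979111 (fold 5.84, -log10 q 45.1, 2703 bp from a treated peak), chr14:31943957-31944908 (fold 6.17, -log10 q 41.6, 1922 bp), chr12:3780086-3781608 (fold 5.98, -log10 q 40.8, 8079 bp) and chr11:117734266-117734821 (fold 8.35, -log10 q 38.9, 4985 bp). The treated peak nearest to each of these had a lower -log10 q in its own list, from 8.05 to 16.5. The lists did not give the same -log10 q at the same fold. By fold, the nearest treated peak was higher than the member at chr12:3780086-3781608 (6.65 against 5.98). At the others it was lower, with folds from 3.65 to 4.61. The member chr11:117734266-117734821 had a higher fold (8.35) than the more distant chr9:21156571-21158093 (7.42) and chr3:41072156-41073348 (7.95).

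Ranked by fold in place of significance, the next members after the chromosome 18 and chromosome 16 regions were chr6:127058889-127059658 (fold 11.7), chr12:116980382-116981113 (fold 11.4), chr9:100346542-100347033 (fold 10.9), chr1:69288448-69289201 (fold 10.9), chr1:116082128-116082525 (fold 10.7) and chr10:44249172-44249868 (fold 10.7). These were chosen after their values were seen. Each lay at least 39559 bp from the nearest treated peak, and the region chr1:116082128-116082525 lay 1163657 bp from it. Between summits, all 8 members of highest fold lay beyond 35734 bp, the upper quartile of all members. Of all members 19.3% lay over 50 kb from a treated peak.

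Control-only regions lay at widely varying distances from treated peaks. Measured between summits, the nearest treated peak was at a median of 13645.5 bp (quartiles 5004.75 and 35734 bp), and 24.97% of members (1420, interval 23.9% to 26.1%) had one within 5 kb. At 50 kb the share was 80.7%. Edge to edge, 699 members (12.3%) lay less than 1000 bp from a treated peak. In 490 of these 699 (70.1%) that treated peak also lay on another control peak, and in 209 (29.9%) it was a treated-only peak. Of treated-only peaks 24.1% had a control peak within 5 kb (interval 22.7% to 25.6%), close to the share of members, but fewer had one within 50 kb: 72.9% (interval 71.4% to 74.4%) against 80.7% (interval 79.7% to 81.7%). Beyond 100 kb lay 16.14% of treated-only peaks and 8.62% of members.

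Spacing within the control list was compared within classes of -log10 q, because the distance to the next control peak varied with strength. Its median lengthened from 11377 bp to 17850 bp between the weakest and strongest classes of shared peaks, and shortened from 11912.5 bp to 3476 bp for control-only regions, of which the strongest class held 9. This measure does not use the treated list. Between -log10 q 5 and 10, 26.4% of control-only regions (716 of 2717, interval 24.7% to 28.1%) and 28.9% of shared peaks (688 of 2377, interval 27.1% to 30.8%) had another control peak within 5 kb. The shares were 28.7% and 26.8% between 10 and 20, with overlapping intervals. Between 20 and 40 the control-only share was the higher one and the intervals did not overlap: 32.6% of control-only regions (70 of 215, interval 26.3% to 39.3%) had a neighbour within 5 kb, against 21.0% of shared peaks (802 of 3824, interval 19.7% to 22.3%). The median distance to the nearest other control peak in this class was 8817 bp for control-only regions and 13444 bp for shared peaks. In this 1 library, control-only regions of high -log10 q thus lay closer to another control peak than shared peaks of like strength did, and those of low -log10 q did not. The treated list showed a like pattern, so the closer spacing was not particular to control-only regions. Between 20 and 40, 33.3% of treated-only peaks (15 of 45) had another treated peak within 5 kb, against 16.3% of shared treated peaks (709 of 4348). The intervals of these shares did not overlap. Between 5 and 10 the treated-only share was the lower one (19.5% against 28.2%). Peaks of 1 library are no replicates, so these differences have no test.

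**Figure D3:**
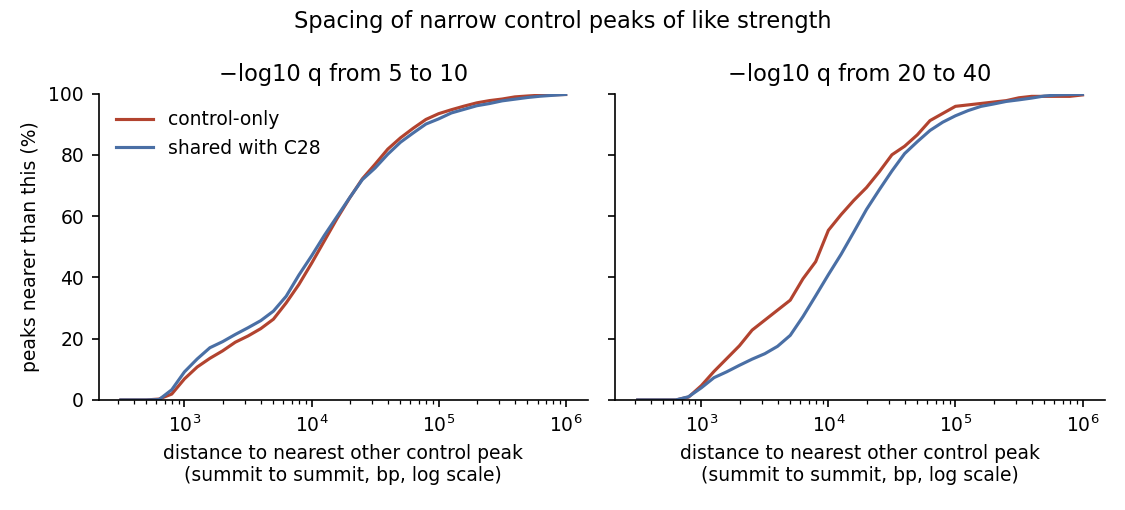
Percent of narrow control peaks (vertical axis) whose nearest other control peak is closer than the distance on the horizontal axis (summit to summit, log scale), for weak peaks (left) and strong peaks (right); red is control-only, blue is shared. The curves nearly coincide for weak peaks, while the 215 strong control-only regions lie closer to other peaks than the 3824 shared ones. These 215 also had the lower median fold (6.10 against 6.92) and width (818 against 1108.5 bp).

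The nearest control neighbour of a member was itself a member in 30.3% of cases (1724, interval 29.1% to 31.5%), a shared narrow peak in 65.7% and a wide peak in 4.03%. For shared narrow peaks the nearest neighbour was a control-only region in 23.5% (interval 22.9% to 24.2%). Between -log10 q 5 and 10 these shares were 30.8% (interval 29.0% to 32.5%) for control-only regions and 27.3% (interval 25.5% to 29.1%) for shared peaks, and the intervals overlap. Between 20 and 40 they were 29.3% (interval 23.3% to 35.9%) and 22.6% (interval 21.3% to 24.0%), which also overlap. The share was higher for control-only regions in each of the 5 strength classes, with overlapping intervals in every class. In the strongest class it rested on 2 of 9 control-only regions (22.2%, interval 2.81% to 60.0%), against 20.8% of shared peaks.

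Some formed runs, defined as neighbouring members with no shared control peak and no treated peak between them. Single regions accounted for 3285 members (57.8%) and pairs for 1436 (25.3%). Runs of 3 or more numbered 283 and held 965 members (17.0%), and 123 runs held 11.7% of treated-only peaks. Run length depends on how common unmatched peaks are, and these made up 25.2% of narrow control and 16.7% of narrow treated peaks. There were 7 runs of 6 or more, which are named because they are the longest, after their values were seen. The longest held 8 regions over 422 kb, at chr7:129641268-130063475, with folds from 2.64 to 5.38 and -log10 q from 6.10 to 13.3. A run of 7 at chr14:47706626-47798267 spanned 91.6 kb with -log10 q from 3.25 to 14.4, and another of 7 at chr2:166062656-166309065 spanned 246 kb with -log10 q from 4.80 to 14.0. Runs of 6 lay at chr11:8426115-8518472 (92.4 kb), at chr4:100827800-100927405 (99.6 kb), at chr16:24506628-24933832 (427 kb) and on chromosome 18 (157 kb).

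The members of these runs were mostly weak peaks, each a separate call. In the run on chromosome 4, the 6 regions measured 869, 431, 537, 442, 330 and 614 bp, with folds of 5.38, 4.47, 4.71, 3.57, 3.54 and 5.34. Their summits lay between 10520 and 68482 bp from the nearest treated peak. In the run on chromosome 11 the 6 regions had -log10 q of 4.46, 6.56, 9.73, 7.61, 12.5 and 4.65, and the nearest treated peak lay 45748 to 97077 bp away. In both cases a stretch of some 100 kb held several control calls and, by the definition of a run, no treated call. At the other end of the scale the tightest run of 3, chr7:26466729-26469595, packed 3 regions into 2.87 kb, with folds of only 1.69, 2.33 and 2.01 and -log10 q of 3.25, 16.4 and 11.5.

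Over windows of 1 Mb, members were spread widely. Of 2192 windows with a narrow control peak 1641 held at least 1 member. In the 892 windows with 10 or more narrow peaks the median unmatched share was 25% (quartiles 16.6% and 33.3%), 18 of these windows had no member, and in 42 the share reached 50% or more. The window with the most members, chr7:87000001-88000000, held 24 among 66 narrow peaks (36.4%, interval 24.9% to 49.1%), and chr13:52000001-53000000 held 15 among 26 (57.7%, interval 36.9% to 76.6%). The highest share was 8 of 10, in chr4:100000001-101000000, which holds the run described above, and in chr13:105000001-106000000 (interval 44.4% to 97.5% for each). Windows were picked after their values were seen, and the intervals take no account of that choice.

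The unmatched share was similar across chromosomes. It ran from 22.6% on chromosome 8 to 29.0% on chromosome 16 among the 19 autosomes, with a median of 25.2%, and was lowest on the X chromosome, at 19.8% (104 of 524, interval 16.5% to 23.5%). On the X chromosome 25.2% of narrow control peaks had a -log10 q under 10, fewer than on any autosome (lowest 27.9%, on chromosome 11). Among these weak peaks alone the X chromosome's unmatched share was 59.1% (interval 50.2% to 67.6%), inside the autosomal range of 54.1% to 64.1%. Among the stronger peaks it was 6.63%, near the low end of the autosomal range from 6.24% (chromosome 17) to 11.2% (chromosome 16). Over the 20 chromosomes the unmatched share went with the share of weak peaks (Pearson r = 0.89, a description over chromosomes that share 1 library). The control list had the larger unmatched share on 20 of 20 chromosomes. The widest difference was on chromosome 18, with 28.0% against 12.8% in the treated list, and the smallest on the X chromosome, with 19.8% against 15.9%.

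**Figure D4:**
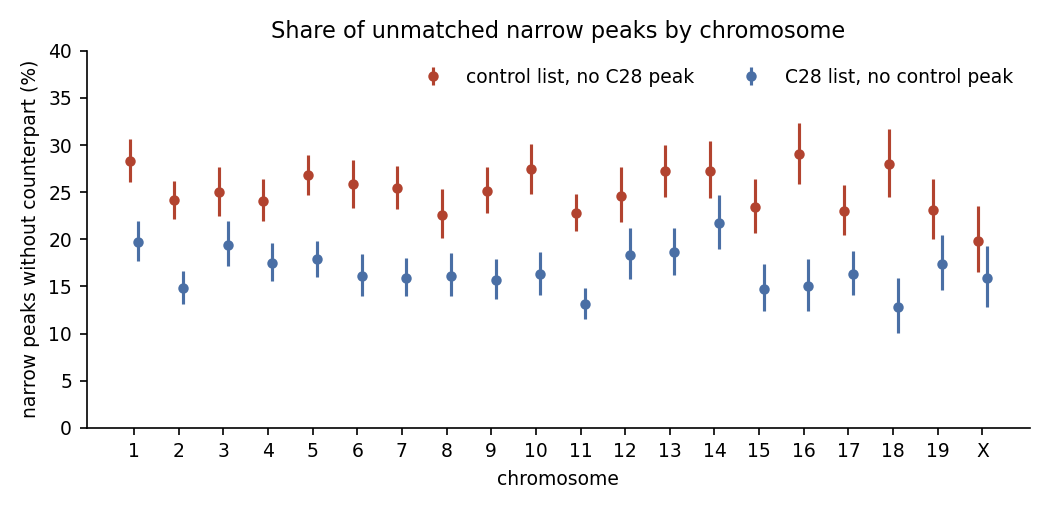
Percent of narrow peaks without a counterpart (vertical axis) on each chromosome (horizontal axis), in the control list (red) and the C28 list (blue), with exact 95% intervals over peaks. Control shares lie between 19.8% (X) and 29.0% (chromosome 16) and are above the C28 shares on all 20 chromosomes.

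The RNA libraries, with 16930212 to 19197376 reads on genes each, were used to check the labelled cell type. Of 20 germline stem cell genes 8 averaged 10 or more normalized counts over 6 libraries and 6 had 0 reads, among them Pou5f1 and Dppa3 (0 of 108208382 reads, which allows up to 3); Ddx4, an RNA helicase that defines germ cells, averaged 0.669. Of 27 blood and mast cell genes 21 averaged 10 or more, including the transcription factor Gata2 at 23743, the leukocyte surface protein Ptprc at 7527 and the mast cell protease Cpa3 at 6753. Kit is in both lists. Ovarian somatic cell genes averaged 10 or more for 5 of 16, and fibroblast genes for 15 of 19. Other germline genes were present, with Tex14 at 525.9, Piwil2 at 85.0 and Dnd1 at 32.7, and some mast cell genes were not, with Fcer1a and Tpsb2 at 0 reads and Ms4a2 at 0.514. The median level was 2.40 for the germline list and 1188 for the blood and mast cell list. Genes of both lists were thus present, but most germline genes averaged under 10 and most blood and mast cell genes did not. Ddx4, Pou5f1 and Dppa3 were at or near 0, and the H3K27ac regions are described as those of cells so labelled.

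RNA of the genes of a histone acetylation list was then compared between C28 and DMSO. The list holds enzymes and readers of histone acetylation, and also genes of histone methylation, among them Ezh2 and Kdm6b. Over all genes limma called 23 of 19087 as risen (0.121%) and 3 as fallen (0.0157%) at an adjusted p under 0.05. The 26 calls became 9, 8 and 5 without DMSO replicate 1, 2 or 3, and 0 and 8 without C28 replicate 2 or 3. With the replicate number as a block 2.54% rose and 2.25% fell. Of the 41 genes of the acetylation list 40 could be tested and Hdac11 had 0 reads. None passed in limma, where Kat6b and Kdm6b had an unadjusted p under 0.05, nor in edgeR or DESeq2. The median log2 fold change of the list was 0.016, beside 0.0045 over all genes tested.

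Ep300, the gene of p300, was at 1835, 1795 and 1966 normalized counts with DMSO and at 2262, 1954 and 1964 with C28. Its log2 fold change of 0.14 had a 95% confidence interval from -0.05 to 0.33, and the groups overlapped. Crebbp, which encodes CBP, was at 296 ± 35.3 and 340 ± 23.9 (SD, n = 3 each). The deacetylase gene Hdac1 was at 2364 ± 77.3 and 2330 ± 165, with an interval of the log2 fold change from -0.20 to 0.15, and Hdac3 at 1847 ± 76.9 and 1779 ± 131, with an interval from -0.24 to 0.13. The widest interval among these writers and erasers was that of Crebbp, from -0.09 to 0.50.

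With the replicate block Kat2a of this list fell. Kat2a, which encodes the acetyltransferase GCN5, was at 2180, 2712 and 2829 normalized counts in DMSO replicates 1 to 3 and at 1643, 2371 and 2373 in C28 replicates 1 to 3. It was lower with C28 in 3 of 3 same-numbered pairs, although the groups overlapped. The means were 2574 ± 346 and 2129 ± 421 (log2 fold change -0.28 ± 0.05 SE). Its limma adjusted p was 0.0128 when blocked by replicate number and 0.764 otherwise, and this call was lost with pair 2 or pair 3 left out.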

How the data were processed

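H3K27ac was profiled by chromatin immunoprecipitation in 1 control and 1 C28 library, and RNA in 3 DMSO and 3 C28 libraries; groups came from sample titles. Per the submitters' processing notes mm9 was the build, and Bowtie2 and Cufflinks 2.2.1 were among the tools, without their roles. For the peak caller, its settings and any use of input DNA, the answer is not given in the sources used here. Peak lists, as deposited, give, per peak and library, a score (10 times the -log10 q, rounded down), a fold enrichment ratio, -log10 p and -log10 q, and a summit. The deposited expression table holds values on a signal scale, gene read counts divided by the authors by 1 size factor per library: 100% of values came out as whole reads to a tolerance of 0.01. The table's own log2 fold changes and adjusted p-value column, deposited by the authors, were not used.

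Overlaps were computed in Python 3.11.15 and checked with bedtools 2.31.1. Distances run between summits unless edges are named. Reference tables were of another build (GRCm38), so regions were not assigned to genes and no sequence was read. All 54232 gene rows were filtered (3 or more libraries at 1 or above) and tested with limma 3.58.1 on log2(value + 1) with an intensity trend and Benjamini-Hochberg adjustment. Intervals of log2 fold changes are limma's. edgeR 4.0.16 and DESeq2 1.42.0 ran on recovered reads. The steps were tested on simulated data. Labels do not say whether RNA replicates are separate cultures, so p-values measure only the spread between these libraries. Same-numbered libraries deviated together (correlation 0.84, 0.68 and 0.70 over 10578 genes averaging at least 50). Replicates 2 and 3 also deviated together across groups, less strongly (0.54 for DMSO 2 with C28 3, 0.41 for DMSO 3 with C28 2). Replicate 1 deviated against both (-0.65 to -0.75), so much of the pattern set replicate 1 apart. The numbers were taken as pairs from the data, and a replicate block is given where it changes a call. Within each group no pair of libraries agreed within counting noise. Chi-square per gene was 5.88 (DMSO) and 5.23 (C28) between replicates 2 and 3. Between replicate 1 and either of them it was higher, from 23.6 to 29.0.

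Named regions were the 10 members of highest -log10 q and those nearest the width limit, unless said otherwise; named acetylation genes were chosen for their role or because they passed with the block. The members and lists were chosen with earlier results of these data known. Some genes of the acetylation list, 1 that passed with the block among them, are not reported here.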

Additional observations from a re-analysis of the deposited data

How the results depend on the processing

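The count of control-only regions (5686, 25.2% of 22542) ran from 4154 to 7614 under the 7 alternatives tried, and the share from 20.4% to 39.0%. It was 5943 (26.4%) and 7614 (33.8%) when a treated peak had to cover 25% and 50% of the control peak. With treated peaks within 1000 bp also counted it was 4987 (22.1%). Under a 1000 bp width limit it was 5022 of 12869 (39.0%), and with no limit 5693 of 23519 (24.2%). For control peaks with -log10 q of at least 3 and 5 it was 5512 of 22319 (24.7%) and 4154 of 20344 (20.4%). The share within 5 kb of a treated peak was 24.97% between summits and 27.6% from peak edges. For RNA over all genes, limma called 26 genes, DESeq2 182 and limma with the replicate block 914; the cause was not tested. Without 1 library limma called 0 to 23 (0 without C28 replicate 2, with 1207 at an unadjusted p under 0.05; edgeR with all 6 libraries called 28). Alternatives chosen after seeing the data gave 90 without replicate 1 of both groups and, with the replicate block, 854 without pair 1, 47 without pair 2 and 191 without pair 3; fewer libraries were fitted in each. The other RNA alternatives gave 26 to 30. Among the acetylation genes reported here, the block changed the call of Kat2a only. Sequence windows and RNA of genes near control-only regions were not analysed here, because the reference tables were of another build than the peaks. Unknown read depth limits every statement on a missing call.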

Other observations

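Outside chromosomes 1 to 19 and X the control list held 66 peaks, on unplaced sequence, the mitochondrial genome and the Y chromosome, and 22 of these overlapped no treated peak; in the treated list 18 of 63 overlapped no control peak. The 7 unmatched control peaks of 2000 bp or more had folds from 2.93 to 5.03 and -log10 q from 7.80 to 20.2, so none was strong for its width.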
